A study of Homo sapiens with 12 samples.

Results

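The cytosolic ribosomal protein genes were followed in T47D cells, an established human breast cancer line that expresses the estrogen receptor. The set held every symbol of the form RPL or RPS with a number and an optional closing A, L or X, together with RPLP0, RPLP1, RPLP2, RPSA and FAU, and it came to 84 of the 55882 symbols in the count table. Of these, 80 passed the filter on low counts and were among the 14799 genes tested. Among the 4 that did not were RPL10L, a copy of RPL10, with 0 to 6 counts per library, and RPL3L, a copy of RPL3 known from muscle, with 0 to 12 counts. RefSeq lists RPS10L, which was tested, as an older name of the pseudogene RPS10P5.

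The study compared 4 groups of 3 RNA-seq libraries. Control T47D cells, which the labels call wild type or normal without saying whether they carried an empty vector, and T47D cells with ectopic HOXB13, a homeobox transcription factor, each received ethanol vehicle or 2 nM estradiol for 24 h. All 4 groups had first spent 72 h in medium whose 10% serum had been stripped of steroid hormones with charcoal. The labels do not say whether the HOXB13 line was 1 clone, or whether the libraries numbered 1 to 3 stem from different cultures; every p-value here thus rests on the spread among these libraries, part of which may be technical. Libraries held 17679824 to 21385996 counts. The luminal markers KRT8 and EPCAM reached at least 6653 and 161 CPM, counts scaled to a common library size, in every library. The leukocyte gene PTPRC did not exceed 0.211 CPM, the basal keratin gene KRT5 did not exceed 0.108 CPM, and the endothelial gene CDH5 had 0 counts. HOXB13 had 92 to 112 counts in the HOXB13 libraries and 0 to 2 in the control libraries.

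Ribosomal proteins join ribosomal RNA in the nucleolus to form the small and the large ribosomal subunit, and most of the proteins are needed in equal number. Most of their mRNAs start with a C followed by a run of pyrimidines, the terminal oligopyrimidine (TOP) tract, through which mTOR and the RNA-binding protein LARP1 adjust their translation. In breast cancer cells with the estrogen receptor, estradiol drives cell growth, and ribosome production is known to rise with growth.

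The TOP tract is shown first, since it marks the mRNAs of this family. Promoters of 65 of the 84 symbols were found in RefSeq (GRCh38.p14), each running from 250 bases before to 50 bases after the annotated transcript start. A C with at least 4 more pyrimidines began exactly at the annotated start in 43 of these 65 (66.2%), against 4.07% of all 35116 promoters. Within 5 bases of the start, on the transcribed strand, such a tract was present in 51 (78.5%), against 21.1%. The 35116 promoters include those of the members, and only the members' were reduced to a single entry per symbol. The windows below run from 30 bases before to 20 bases after the start, with the tract in capitals. They show the stalk gene RPLP0 and the fusion gene FAU. RPSA and RPS6 had the smallest, and RPS21 and RPL37A some of the largest, of the differences between library numbers described later, and RPL34 and RPL35 were called with estradiol in both genotypes once libraries were paired by number. Last come RPL9 and RPS27L, in which no tract lay within 5 bases of the annotated start.
RPLP0, chr12:120201092-120201141, minus strand: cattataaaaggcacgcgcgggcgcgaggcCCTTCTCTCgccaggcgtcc
FAU, chr11:65122115-65122164, minus strand: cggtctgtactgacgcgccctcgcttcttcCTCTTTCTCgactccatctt
RPSA, chr3:39406690-39406739, plus strand: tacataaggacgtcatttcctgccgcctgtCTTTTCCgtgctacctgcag
RPS6, chr9:19380217-19380266, minus strand: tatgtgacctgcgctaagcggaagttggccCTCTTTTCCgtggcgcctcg
RPS21, chr20:62387073-62387122, plus strand: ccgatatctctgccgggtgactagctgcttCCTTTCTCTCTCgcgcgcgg
RPL34, chr4:108620546-108620595, plus strand: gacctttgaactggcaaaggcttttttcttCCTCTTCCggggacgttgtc
RPL35, chr9:124861938-124861987, minus strand: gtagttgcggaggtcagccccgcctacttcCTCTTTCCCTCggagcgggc
RPL37A, chr2:216498814-216498863, plus strand: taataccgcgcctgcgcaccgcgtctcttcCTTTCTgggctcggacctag
RPL9, chr4:39458903-39458952, minus strand: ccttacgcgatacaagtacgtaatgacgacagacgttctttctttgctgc
RPS27L, chr15:63157458-63157507, minus strand: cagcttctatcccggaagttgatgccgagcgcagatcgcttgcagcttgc

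RPS21 and RPL35 held tracts of 12 and 11 pyrimidines, and RPL37A held one of 6. RPL6, RPL9 and RPL17 were called with estradiol in at least 1 genotype without pairing libraries by number. They held no tract within 5 bases of the annotated start. In the RPL9 window above, a C followed by more pyrimidines lies farther downstream, and RPL17 has pyrimidine runs upstream of its annotated start. Which start these cells use was not tested. RPL39L, called in both genotypes, had no promoter entry. Other motifs were searched on both strands of the 300-base promoters. The full palindromic estrogen response element was found in 0 of the 65 and in 0.0569% of all promoters, and its half-site GGTCA was found in 25 (38.5%) against 37.4%. The ETS-type motif CCGGAAG occurred in 22 (33.8%) against 10.3%, the YY1-type motif AAGATGGC in 7 (10.8%) against 2.89%, the SP1-type motif GGGCGG in 37 (56.9%) against 45.0%, and the E-box CACGTG in 3 (4.62%) against 7.26%. HOXB13-type motifs were found in 0 of the 65, with CTCGTAAA in 0.137% and CCAATAAA in 0.934% of all promoters. These matches describe letters in a fixed window and say nothing of a factor's binding.

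Together the ribosomal protein genes took 3.47 to 5.94% of all counts in a library. In control cells their share was 3.47, 4.93 and 3.96% in the vehicle libraries numbered 1, 2 and 3, and 4.48, 5.94 and 4.97% in the estradiol libraries. In HOXB13 cells it was 3.89, 4.80 and 3.56% in vehicle and 4.88, 5.31 and 4.90% in estradiol. The ranges of vehicle and estradiol overlapped in control cells, because vehicle library 2 lay above estradiol library 1, but not in HOXB13 cells. Counting error was small, since the widest 95% Wilson interval reached 0.0105 percentage points to either side and covers counting error only.

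Compared number by number, the share was higher with estradiol in all 6 pairs of libraries, although the labels do not say that equal numbers pair. In control cells the increase was 1.01 percentage points in each of the 3 pairs. In HOXB13 cells it was 0.991, 0.507 and 1.33 points for numbers 1, 2 and 3. The group means were 4.12 ± 0.742% in vehicle and 5.13 ± 0.743% in estradiol for control cells, and 4.09 ± 0.643% and 5.03 ± 0.243% for HOXB13 cells (SD, n = 3). Between genotypes the sign was mixed: HOXB13 minus control was 0.420, -0.126 and -0.399 points in vehicle and 0.403, -0.629 and -0.0713 points in estradiol. With 3 libraries on each side, the smallest two-sided p of an exact permutation test would be 0.1, so no such test was run on these shares.

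**Figure D1:**
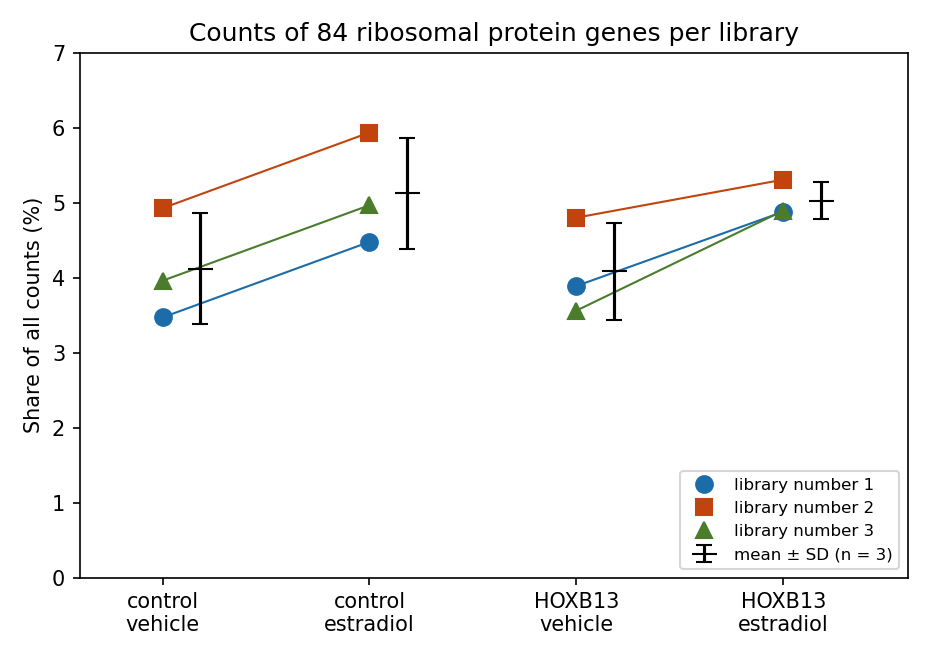
Share of all counts taken by the 84 ribosomal protein genes (vertical axis, percent) in the 12 libraries of 4 groups; symbols give the library number, lines join equal numbers within a genotype, and bars give mean ± SD (n = 3). Every line rises from vehicle to estradiol, and the square of number 2 is the highest in each group.

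Large-subunit and small-subunit genes moved together, with the small-subunit share at 0.496 to 0.526 of the large-subunit share in every library. Ribosomal protein pseudogenes, with 262 of 819 symbols counted at all, took only 0.0433 to 0.0747% of counts, and including them changed the estradiol difference in control cells from 1.01 to 1.02 points. Many of these pseudogenes are near-identical to their parent genes, and the read-through symbols RPL17-C18orf32, RPS10-NUDT3 and RPL36A-HNRNPH2 share exons with members, so the split of reads among such copies is uncertain. In bulk libraries a share of counts cannot tell fewer cells of a type from less RNA per cell.

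The genes differed widely in level. RPLP0 had the highest mean CPM over the 12 libraries, at 2400, followed by RPL13 at 2052, RPL8 at 1476, RPS2 at 1469 and RPL4 at 1462, and the 5 held 19.3% of the CPM of all members. RPL13, RPL8 and RPL4 belong to the large subunit and RPS2 to the small one. The lowest tested were RPS10L at 0.925 CPM, RPL39L at 26.5, RPS27L at 28.3, RPL36A at 43.6 and RPL17 at 66.7. RPL36A and RPL17 share exons with the read-through symbols named above. How reads on shared exons were counted is not given, so the levels of RPL36A and RPL17 may be too low. CPM favours long transcripts. Per kilobase of coding sequence, RPL41, whose protein of 25 residues is the shortest, stood at 7415 CPM, RPL13 at 3242 and RPLP0 at 2523, while RPS27L stood at 112 and RPL17 at 121. Coding length leaves out the UTRs, which weighs most on the shortest genes.

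**Figure D2:**
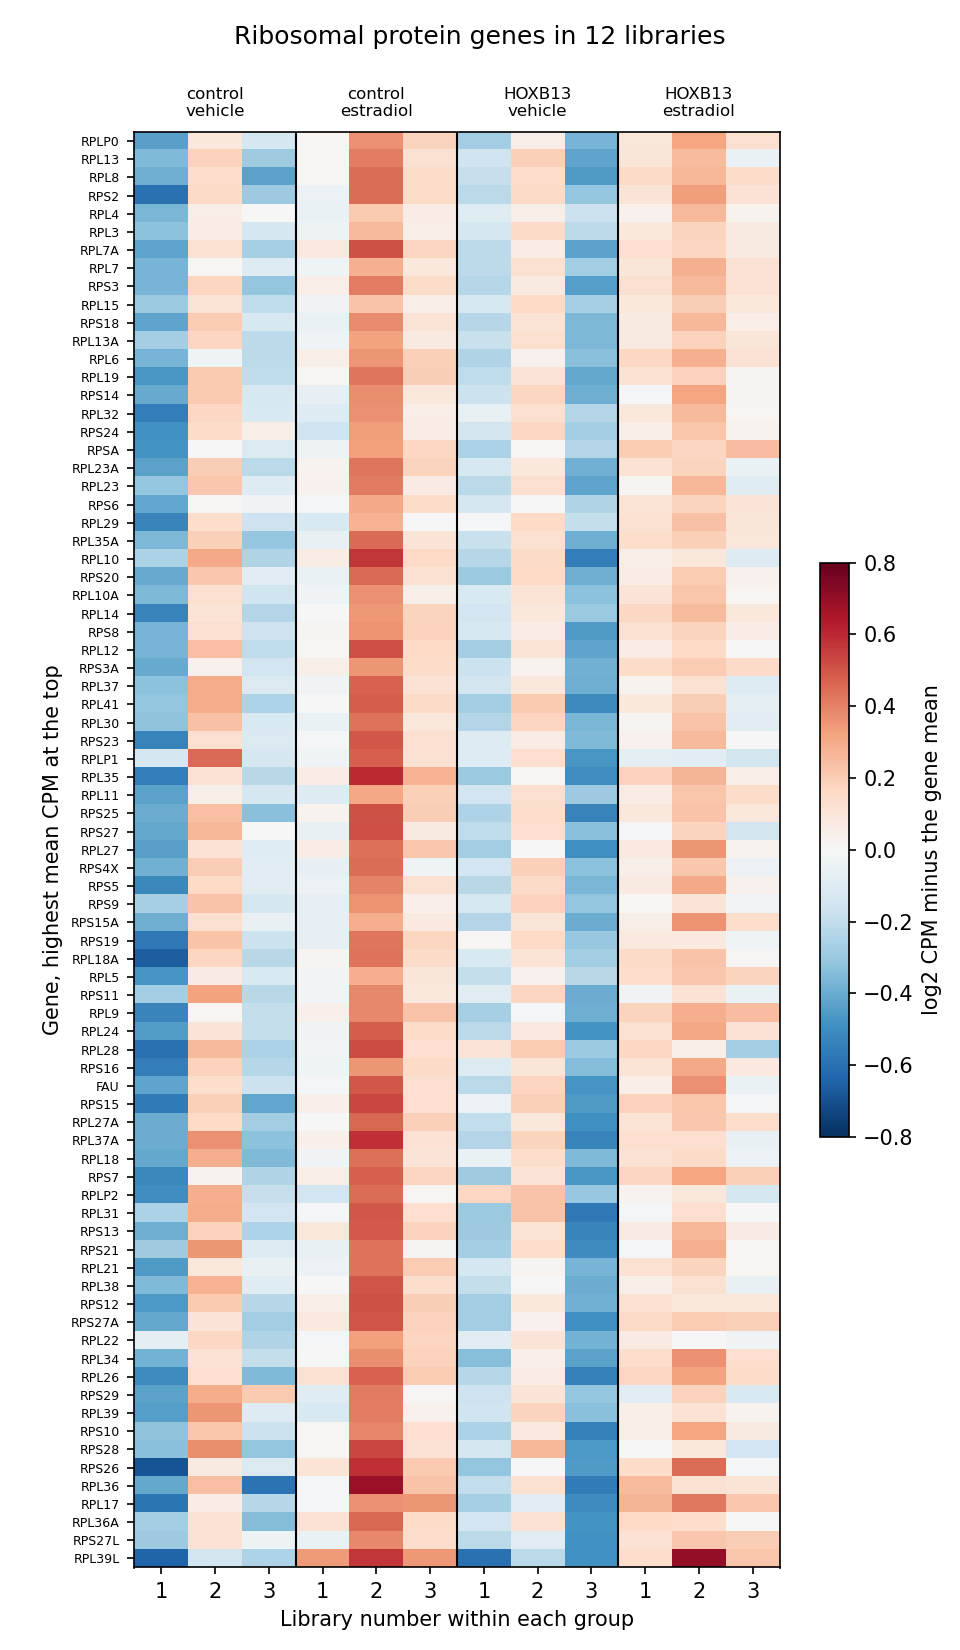
Each cell gives the log2 CPM of 1 gene in 1 library minus that gene's mean over 12 libraries (colour, red above and blue below the mean), for 79 tested ribosomal protein genes in order of mean CPM; the pseudogene symbol RPS10L, at 0.925 CPM, is left out. Whole columns change colour together: number 2 is the reddest in control cells of both treatments, and number 1 of control vehicle and number 3 of HOXB13 vehicle are the bluest.

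Estradiol against vehicle in control cells was the first comparison of the design. The fitted log2 fold change was above 0 for 79 of the 80 tested ribosomal protein genes, against 48.7% of all tested genes, and its median was 0.32, or 1.25-fold, against -0.01 over all tested genes. Most changes were of one size, with 67 genes between 0.2 and 0.5 on the log2 scale, 4 above 0.5, 8 between 0 and 0.2, and RPS10L below 0. RPL39L, RPL9 and RPL6 rose past an adjusted p under 0.05 in edgeR's quasi-likelihood test. These 3 of 80 compare with 8.65% of all tested genes called higher, and 0 were called lower (6.72% of all tested genes). At an unadjusted p under 0.05 there were 33 of 80 (28.1% of all tested genes), and DESeq2 called 8 higher (10.3% of all tested genes).

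With the library number as a block, which compares libraries of equal number, 64 of the 80 rose, against 17.5% of all tested genes, and 0 fell (16.5%). The block rests on correlations in these same data, described below, and not on the labels. At an unadjusted p under 0.05 in that fit there were 74 of 80 (42.2% of all tested genes). All but 2 of the 80, RPS29 and RPS10L, were higher in estradiol in each of the 3 same-numbered pairs, against 30.2% of all tested genes. Without regard to number, only 6 had all 3 estradiol libraries above all 3 vehicle libraries (16.1% of all tested genes), namely RPL39L, RPL6, RPL9, RPS26, RPS3A and RPS7, and RPS10L had all 3 below (14.9%). The count without a block rested on single libraries: it was 41 without control vehicle library 2 (9.91% of all tested genes), and ranged from 1 to 41 as each library was left out (5.7 to 9.91%). It was 49 without all 4 libraries numbered 2 (12.9%), and 0 without those numbered 1 (2.42%) or those numbered 3 (3.11%).

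Short genes as a class were higher in estradiol too. In control cells, other tested genes coding for up to 150 residues had a median log2 fold change of 0.14, those over 150 and up to 300 residues 0.07, those over 300 and up to 600 residues -0.00 and longer ones -0.09. The ribosomal protein genes had 0.31 at up to 150 residues (38 genes) and 0.33 above that and up to 300 (38 genes), and 0.22 for the 3 longer ones. Among themselves, their estradiol change followed protein length little, with a Pearson correlation of 0.04 and a Spearman correlation of 0.12 over 79 genes that share the same libraries. Once the trend with length that the other genes showed in each library was removed, the members' median was 0.21 and 75 of 80 were above 0. The fit then called 8 higher (9.99% of all tested genes), and 48 with the block (17.2%).

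The same contrast in HOXB13 cells gave 77 of 80 log2 fold changes above 0 (49% of all tested genes), with a median of 0.25, or 1.19-fold, against -0.01 over all tested genes. RPL39L, RPL17 and RPL9 passed the test as higher, 3 of 80 against 7.22% of all tested genes, and 0 as lower (6.38%). At an unadjusted p under 0.05 there were 21 (26.1% of all tested genes), and DESeq2 called 6 higher (8.91% of all tested genes). With the block 52 rose (15.5% of all tested genes) and 0 fell (15%), and 64 passed unadjusted (39.6%). Of the 52, 50 were also called with the block in control cells, where 17.5% of all tested genes were called higher. The share of all tested genes called in both genotypes was not counted. In 66 of the 80 all 3 same-numbered pairs were higher in estradiol (28.0% of all tested genes). Here 22 had all 3 estradiol libraries above all 3 vehicle libraries, against 15.3% of all tested genes, and 1, RPS10L, had all 3 below (14.7%). The count without a block was 15 without HOXB13 vehicle library 2 (6.92% of all tested genes), and ranged from 1 to 15 as each library was left out (4.55 to 7.96%). It was 52 without the libraries numbered 2 (11.7%), and 0 without those numbered 1 (1.42%) or 3 (2.3%). With the length trend removed the median was 0.17, 73 were above 0, and 7 were called higher (8.62%), or 37 with the block (15.3%).

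**Figure D3:**
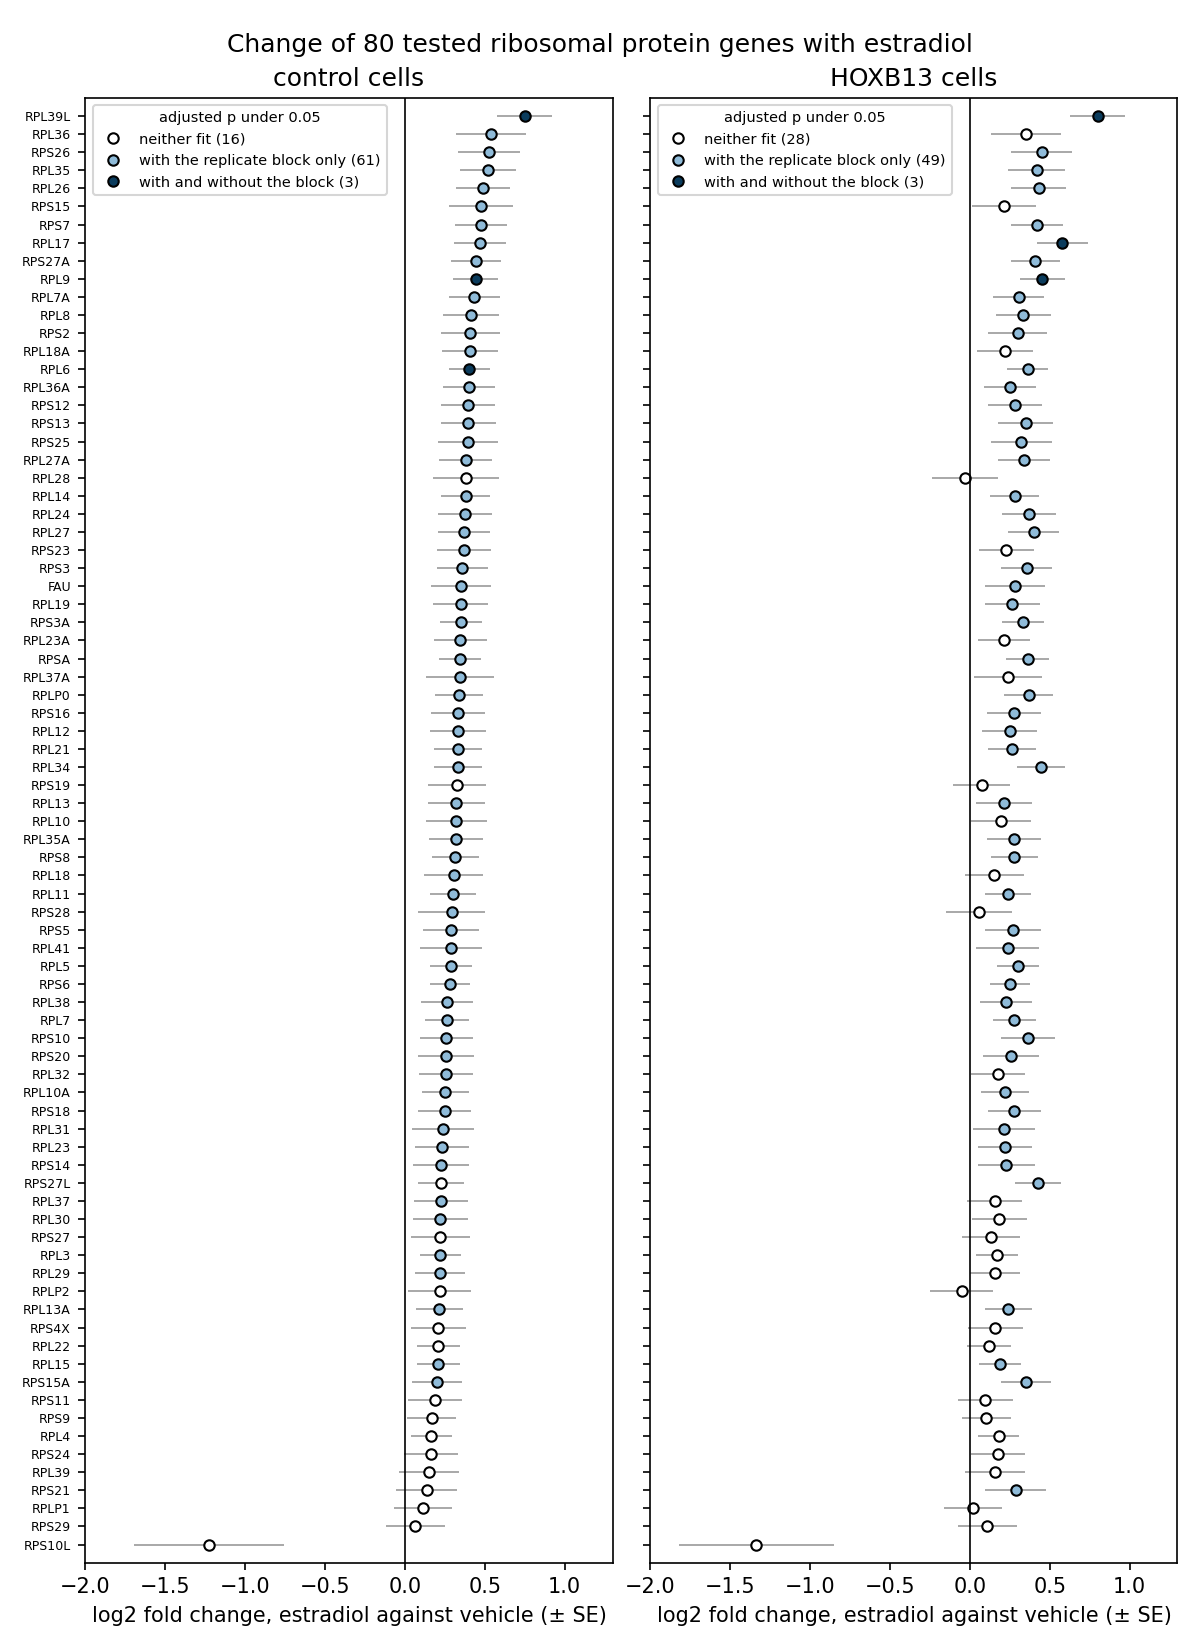
Log2 fold change of estradiol against vehicle (horizontal axis, ± SE) for 80 tested ribosomal protein genes in control cells (left) and HOXB13 cells (right), in order of the change in control cells; dark points passed an adjusted p under 0.05 with and without the library number as a block, light blue points with the block only, and open points in neither fit. Nearly all points lie right of 0, RPL39L is the highest in both genotypes and RPS10L the only one far to the left.

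RPL39L codes for a near copy of RPL39, a small protein that lines the exit tunnel of the large subunit; the copy is best known from the testis. In control cells RPL39L stood at 16.2, 22.9 and 21.4 CPM in vehicle and at 32.03, 37.7 and 32.2 CPM in estradiol. In HOXB13 cells it stood at 16.7, 21.9 and 18.2 CPM in vehicle and 28.0, 41.2 and 29.6 CPM in estradiol. The groups did not overlap in either genotype. The change was 0.75 ± 0.17 (log2, SE; 1.68-fold, adjusted p = 0.00843 in edgeR's quasi-likelihood test) in control cells and 0.80 ± 0.17 (1.74-fold, adjusted p = 0.00676) in HOXB13 cells. Its call held as each single library was left out, and was lost only without all libraries numbered 1 or 3, with an adjusted p of 0.125 and 0.103 in control cells and 0.0760 and 0.109 in HOXB13 cells.

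RPL39 itself stood at 119, 207 and 150.6 CPM in control vehicle and 149, 215 and 166 CPM in control estradiol. In HOXB13 cells RPL39 stood at 145, 183 and 128 CPM in vehicle and 168, 176 and 165 CPM in estradiol. These groups overlapped, and the change of RPL39 was 0.15 ± 0.19 in control cells (adjusted p = 0.651, or 0.22 with the block) and 0.16 ± 0.19 in HOXB13 cells (0.661, or 0.20 with the block). The coding sequences of this pair (GENCODE annotation of GRCh38) are each 153 bases long and are the same at 94.8% of positions. They are printed below with their 8 differing bases in capitals. RPL39 lies on chromosome X, where its coding exons span 119786687 to 119791576, and that of RPL39L is a single block on chromosome 3, from 187121148 to 187121300, both on the minus strand.
RPL39: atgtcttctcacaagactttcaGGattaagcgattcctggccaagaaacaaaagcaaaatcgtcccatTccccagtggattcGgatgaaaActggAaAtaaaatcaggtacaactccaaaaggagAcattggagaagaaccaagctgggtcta
RPL39L: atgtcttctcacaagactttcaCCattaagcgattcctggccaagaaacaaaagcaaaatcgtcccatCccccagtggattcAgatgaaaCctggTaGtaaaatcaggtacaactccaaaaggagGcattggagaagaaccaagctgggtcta

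The longest run shared by both is 44 bases, so a read within such a run cannot be placed on 1 of the 2 genes. The coding lengths are equal, but counts also cover the UTRs, so the share within the pair is compared between groups and says nothing of which gene is the more abundant per length. RPL39L made up 9.99 to 12.4% of the sum of both CPM in control vehicle and 14.9 to 17.7% in control estradiol, and 10.3 to 12.4% and 14.3 to 19.0% in HOXB13 cells. The vehicle and estradiol ranges did not overlap in either genotype. RPS27L, a p53-induced copy of RPS27 of the same length, made up 5.19 to 6.17% of its pair in control vehicle and 5.25 to 5.98% in control estradiol, which overlapped, and 4.96 to 5.68% and 5.85 to 7.15% in HOXB13 cells, which did not.

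**Figure D4:**
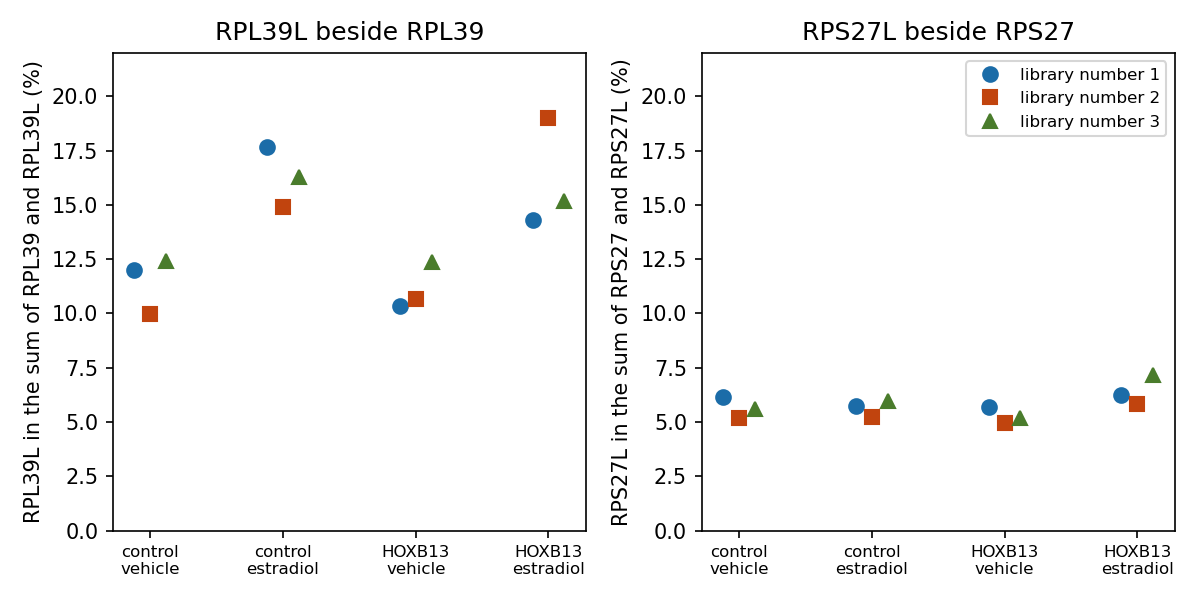
RPL39L as a percentage of the summed CPM of RPL39 and RPL39L (left), and RPS27L as a percentage of the sum of RPS27 and RPS27L (right), in each library of the 4 groups; symbols give the library number. All 6 estradiol libraries, at 14.3 to 19.0%, lie above all 6 vehicle libraries, at 9.99 to 12.4%, in the left panel.

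RPL6, RPL9 and RPL17 are proteins of the large subunit, and RPL17 sits at the exit tunnel. RPL6 stood at 856, 1083 and 958 CPM in control vehicle and at 1148, 1417 and 1266 CPM in control estradiol, without overlap (0.40 ± 0.13, adjusted p = 0.0455). In HOXB13 cells RPL6 stood at 940, 1136 and 878 CPM in vehicle and 1243, 1353 and 1201 CPM in estradiol, again without overlap, with an adjusted p of 0.0773 (0.00044 with the block). RPL9 stood at 256, 373 and 323 CPM in control vehicle and 379, 481 and 433 CPM in control estradiol, so that the lowest estradiol library was just above the highest vehicle library (0.44 ± 0.14, adjusted p = 0.0476). In HOXB13 cells RPL9 stood at 306, 367 and 281 CPM and at 417, 451 and 438 CPM, a change of 0.45 ± 0.14 (adjusted p = 0.0475). RPL17 stood at 54.1, 61.5 and 45.8 CPM in HOXB13 vehicle and 78.4, 87.0 and 75.7 CPM in HOXB13 estradiol, without overlap (0.58 ± 0.16, adjusted p = 0.0282). In control cells RPL17 went from 43.4, 67.7 and 55.6 CPM to 64.3, 83.7 and 83.0 CPM, which overlapped (0.47 ± 0.16, adjusted p = 0.0653, or 0.00053 with the block). In control cells the calls of RPL6 and RPL9 were lost without control vehicle library 1 or 3, control estradiol library 2 or 3, HOXB13 vehicle library 1 or HOXB13 estradiol library 1 or 3, and that of RPL9 also without HOXB13 estradiol library 2, at adjusted p of up to 0.176 for RPL6 and 0.193 for RPL9. In HOXB13 cells the call of RPL9 was lost without library 3 of either control group, HOXB13 vehicle library 1 or 3 or any HOXB13 estradiol library (adjusted p of up to 0.164), and that of RPL17 without HOXB13 vehicle library 1 or 3 or any HOXB13 estradiol library (up to 0.108).

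The stalk of the large subunit, which recruits translation factors, is built from RPLP0, RPLP1 and RPLP2, and its genes did not give like values. RPLP0 stood at 1753, 2507 and 2145 CPM in control vehicle and 2389, 3044 and 2673 CPM in control estradiol (0.34 ± 0.15, adjusted p = 0.16, or 0.0016 with the block). In HOXB13 cells RPLP0 went from 1949, 2459 and 1828 CPM to 2519, 2947 and 2581 CPM, without overlap (0.37 ± 0.15, adjusted p = 0.136, or 0.00083 with the block). RPLP1 changed by 0.12 ± 0.18 in control and 0.02 ± 0.18 in HOXB13 cells, and RPLP2 by 0.22 ± 0.20 and -0.05 ± 0.20, with no call in either fit. RPLP2 had 280, 293 and 203 CPM in HOXB13 vehicle and 255, 266 and 228 CPM in HOXB13 estradiol.

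Among other genes with known roles, the large-subunit genes RPL5 and RPL11, whose free proteins bind the p53 regulator MDM2, changed by 0.29 ± 0.13 and 0.30 ± 0.14 in control cells and by 0.30 ± 0.13 and 0.24 ± 0.14 in HOXB13 cells. Both were called with the block in both genotypes, as were RPL13A, which can leave the ribosome to silence inflammatory mRNAs, at 0.22 ± 0.15 and 0.24 ± 0.15, and the very short RPL41, at 0.29 ± 0.20 and 0.24 ± 0.20. RPL3, a protein near the peptidyl transferase centre, and RPL10, which joins the large subunit late, were called with the block in control cells, at 0.22 ± 0.13 and 0.32 ± 0.19. In HOXB13 cells RPL3 and RPL10 were at 0.17 ± 0.13 and 0.19 ± 0.19, with block-adjusted p of 0.078 and 0.061. RPL22, an RNA-binding protein of the large subunit, was at 0.21 ± 0.14 and 0.12 ± 0.14 and was called in neither.

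In the small subunit, RPS6, the substrate of the S6 kinases, stood at 513, 689 and 673 CPM in control vehicle and 677, 846 and 758 CPM in control estradiol. In HOXB13 cells RPS6 stood at 624, 683 and 581 CPM in vehicle and 738, 774 and 735 CPM in estradiol, where the groups did not overlap. Its change was 0.28 ± 0.12 and 0.25 ± 0.12 (adjusted p = 0.15 and 0.22, or 0.0076 and 0.018 with the block). RPSA, also known as a laminin receptor, changed by 0.35 ± 0.13 and 0.36 ± 0.13, FAU, which codes for a small-subunit protein fused to a ubiquitin-like one, by 0.35 ± 0.19 and 0.28 ± 0.19, and RPS14, lost in a form of myelodysplastic syndrome, by 0.23 ± 0.18 in both genotypes. These 3 genes were called with the block in both genotypes. RPS19, the gene most often mutated in Diamond-Blackfan anaemia, changed by 0.33 ± 0.18 and 0.07 ± 0.18, RPS4X by 0.21 ± 0.17 and 0.16 ± 0.17, RPS27 by 0.22 ± 0.18 and 0.13 ± 0.18, and RPS29 by 0.07 ± 0.18 and 0.11 ± 0.18, and none of the 4 was called in either fit. RPS27L was at 0.23 ± 0.15 in control cells and at 0.43 ± 0.15 in HOXB13 cells, where it was called with the block (block-adjusted p = 0.0026).

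RPS10L went the other way at very low levels, with 1.35, 1.72 and 0.992 CPM in control vehicle and 0.440, 0.568 and 0.727 CPM in control estradiol. Its change was -1.22 ± 0.47 in control cells (adjusted p = 0.0982) and -1.34 ± 0.49 in HOXB13 cells (adjusted p = 0.087), and the groups did not overlap in either. Among genes with a TOP tract exactly at the annotated start (43 genes) the median log2 fold change with estradiol was 0.33 in control and 0.26 in HOXB13 cells, and among those without one there (21 tested genes) 0.32 and 0.22. Split by a tract within 5 bases of the start, the order was the other way, with 0.33 and 0.25 for genes with it (51 genes) and 0.37 and 0.36 for genes without it (13 tested genes). A tract farther from the annotated start is counted as absent in both splits.

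HOXB13 against control cells showed no call among the ribosomal protein genes. In vehicle, edgeR called 0 of 80 in either direction, against 0.0203% of all tested genes higher and 0% lower. DESeq2 called 0 of 80, against 13 higher and 7 lower among all 14799 tested genes. At an unadjusted p under 0.05 in edgeR, 0 passed (3.78% of all tested genes). With the block, 0 were called, against 0.189% of all tested genes higher and 0.216% lower, and 1 passed unadjusted (9.6%). No member had groups that did not overlap, against 3.59% of all tested genes higher and 3.54% lower. The median log2 difference was -0.03, with members between -0.21 and 0.17, and 30 of 80 were above 0 (50.3% of all tested genes). That sign turned on single libraries: without control vehicle library 1, 1 of 80 was above 0, and without control vehicle library 2, 78 were. The median ran from -0.18 without HOXB13 vehicle library 2 to 0.13 without control vehicle library 2, and was 0.08 without HOXB13 vehicle library 3. In estradiol, edgeR called 0, against 0.0135% of all tested genes higher and 0% lower, and 0 passed unadjusted (3.3%). DESeq2 called 0, against 11 higher and 9 lower among all 14799 tested genes. With the block, 0 were called, against 0.142% of all tested genes higher and 0.25% lower, and 4 passed unadjusted (10.3%). The median was -0.08, with members between -0.31 and 0.09, and 16 of 80 were above 0 (48.9%). Here 1 was above 0 without control estradiol library 1 (median -0.17) and 61 without control estradiol library 2 (median 0.05). Without all libraries numbered 2, 40 of 80 were above 0 in vehicle and 43 in estradiol. In both media the median 95% interval of a member reached 0.36 to either side without the block and 0.18 with it.

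The gene farthest below 0 in HOXB13 cells in estradiol was RPLP1. It stood at 498, 710 and 554 CPM in control estradiol and 482, 480 and 461 CPM in HOXB13 estradiol, the only member whose groups did not overlap in this contrast (1 lower, against 5.37% of all tested genes, and 0 higher, against 4.51%). Its difference was -0.31 ± 0.18, with an adjusted p of 0.999, or 0.28 with the block. In vehicle RPLP1 stood at 464, 697 and 464 CPM in control and 475, 559 and 369 CPM in HOXB13 cells, which overlapped. RPL10 and RPS28 were next to it in estradiol among the genes named here, at -0.27 ± 0.19 and -0.26 ± 0.21.

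The estradiol responses of the genotypes were compared directly as an interaction. edgeR called 0 of 80 with and without the block (0% of all tested genes), DESeq2 called 0, and 0 passed at an unadjusted p under 0.05 in either edgeR fit, against 1.48% of all tested genes without the block and 3.95% with it. The median difference of HOXB13 minus control responses was -0.05, and the median 95% interval reached 0.51 to either side, or 0.25 with the block. The sign of that median changed with single libraries: it ran from -0.22 without control vehicle library 2 to 0.10 without HOXB13 vehicle library 2, and was also above 0 without control vehicle library 1 (0.07) or control estradiol library 2 (0.08). The lowest value was that of RPL28, a large-subunit gene singled out after its values were seen, at -0.41 ± 0.29 (adjusted p = 1.0). RPL28 stood at 225, 407 and 286 CPM in control vehicle and 335, 488 and 373 CPM in control estradiol, against 366, 392 and 277 CPM and 381, 351 and 282 CPM in HOXB13 cells. Both estradiol contrasts used separate libraries, and over 79 genes the members' changes in one correlated with those in the other at a Pearson r of 0.69 and a Spearman rho of 0.65; this is across genes, which share libraries and are not replicates.

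The libraries numbered 2 stood apart in these genes. In control vehicle all 80 tested genes were higher in library 2 than in the mean of libraries 1 and 3 on the log2 CPM scale, in control estradiol 79, in HOXB13 vehicle 80 and in HOXB13 estradiol 75. In all 4 groups at once this held for 75 of 80, against 25.8% of all tested genes. The median excess over the 4 groups was 0.35 (range 0.18 to 0.47), against 0.01 over all tested genes, and by group it was 0.47, 0.36, 0.41 and 0.14 in the order just given. The excess was as large as the median estradiol change in 3 of the 4 groups, and smallest in HOXB13 estradiol. What the number stands for is not given in the labels.

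The excess was graded by length. The largest values belonged to genes of short proteins: RPL37A at 0.47, RPS28 at 0.47, RPS21 at 0.45, RPL41 at 0.44 and RPL36 at 0.44. RPL37A, for example, stood at 228, 388 and 240 CPM in control vehicle, and RPS28 at 127, 207 and 129 CPM. The smallest belonged to RPS6 at 0.18, RPSA at 0.19, RPL4 at 0.21, RPL22 at 0.22 and RPL5 at 0.23, of which RPL22 alone codes for fewer than 150 residues. RPL4, the longest at 427 residues, stood at 1130, 1507 and 1459 CPM in control vehicle. Over 79 genes the excess and log2 protein length had a Pearson correlation of -0.53 and a Spearman correlation of -0.50, as a description across genes of the same libraries.

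Other genes showed the same gradient at a lower level. Over 12621 other tested genes with a known length, the correlations were -0.40 and -0.43. Their median excess in library 2 was 0.26 at up to 150 residues, 0.16 from there to 300, 0.03 from there to 600 and -0.15 above 600. The ribosomal protein genes had 0.37, 0.33 and, for the 3 above 300 residues, 0.24. Mitochondrial ribosomal protein genes had 0.30. The share of counts of the other genes of up to 150 residues was also highest in number 2 in each group, at 5.49% against 4.76 and 4.59% in control vehicle and 5.03% against 4.85 and 4.79% in HOXB13 estradiol. The part of RNA quality or library preparation in this difference was not tested. The estradiol difference in share was 1.01 points in control cells and 1.16 points in HOXB13 cells without number 2.

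**Figure D5:**
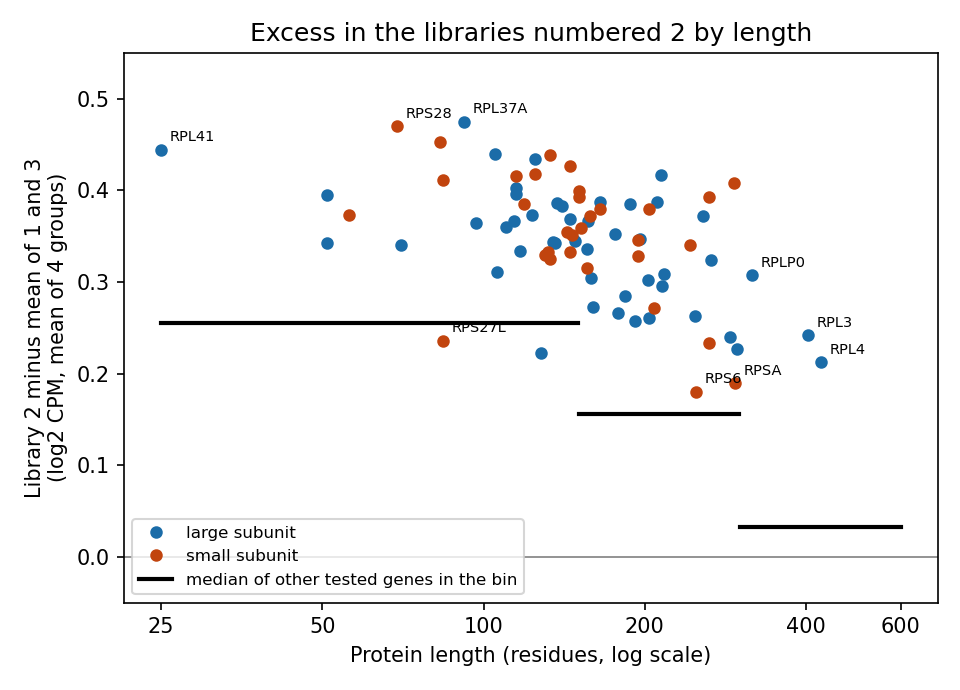
Excess in the libraries numbered 2 (vertical axis, log2 CPM of library 2 minus the mean of libraries 1 and 3, averaged over 4 groups) against protein length (horizontal axis, log scale) for 79 ribosomal protein genes; black lines give the medians of other tested genes in 3 length bins. All points lie above 0, from 0.18 for RPS6 to 0.47 for RPL37A, and all but RPL22 and RPS27L lie above the line of their bin.

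Genes around the ribosomal proteins were counted by list. Their counts are to be read against all tested genes, of which 8.65% were called higher and 6.72% lower in control cells, and 7.22% and 6.38% in HOXB13 cells. With the block these shares were 17.5% and 16.5% in control cells and 15.5% and 15% in HOXB13 cells. At an unadjusted p under 0.05 without the block, 28.1% passed in control and 26.1% in HOXB13 cells, both directions together. DESeq2 called 10.3% higher in control and 8.91% in HOXB13 cells, and 1287 and 1232 of 14799 genes lower. Of 7 tested ribosomal protein genes outside the symbol rule, 1 rose in each genotype, RPL22L1, the paralogue of RPL22, from 9.21 ± 1.76 to 14.8 ± 3.80 CPM in control cells (SD, n = 3; 0.68 ± 0.20 on the log2 scale, adjusted p = 0.0302) and by 0.73 ± 0.20 in HOXB13 cells (adjusted p = 0.0239); the list medians were 0.25 in both, and with the block 4 rose in each. RPL41P1, a pseudogene by its symbol, is 1 of these 7 and is counted again among the pseudogenes below. It was called with the block in HOXB13 cells only. Of 20 chaperones and import factors of ribosomal proteins, 5 rose and 0 fell in each genotype, with medians of 0.29 and 0.26. PA2G4, a nucleolar growth regulator, rose by 0.60 ± 0.12 in control and 0.50 ± 0.12 in HOXB13 cells, NCL, the nucleolar protein nucleolin, by 0.41 ± 0.10 and 0.32 ± 0.10, and the importins IPO4 and IPO9 also rose in both. RRS1, which helps the 5S particle join the large subunit, was called in control cells (0.96 ± 0.19) and stood at 0.48 ± 0.19 in HOXB13 cells. GRWD1, a chaperone of RPL3, was called in HOXB13 cells (0.36 ± 0.11) and stood at 0.32 ± 0.11 in control cells. With the block both were called in both genotypes, and the interaction test called neither. With the block 13 rose and 1 fell in control cells, and 11 rose and 0 fell in HOXB13 cells.

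Translation factors and other mRNAs with a known TOP tract had medians near 0. Of 22, 0 were called in either genotype by edgeR, and the medians were 0.01 and 0.00. At an unadjusted p under 0.05, 1 was higher and 1 lower in each genotype, and DESeq2 called 1 higher in control cells and 1 lower in each genotype. There were 4 higher and 2 lower with the block in control cells and 4 and 1 in HOXB13 cells. EEF1A1, the elongation factor that delivers tRNA, was at 7067 ± 642 CPM in control vehicle and 6672 ± 148 CPM in control estradiol (SD, n = 3; -0.08 ± 0.11). Of 27 cap-binding and mTOR genes, 2 rose and 1 fell in control cells and 2 rose and 2 fell in HOXB13 cells, near the shares of all tested genes. With the block 4 rose and 6 fell in control cells and 3 rose and 4 fell in HOXB13 cells. EIF4E, the cap-binding protein, rose by 0.33 ± 0.10 and 0.42 ± 0.10, RHEB, the activator of mTOR, by 0.53 ± 0.14 and 0.50 ± 0.14, and DDIT4, an mTOR inhibitor, fell by 1.45 ± 0.16 and 1.36 ± 0.16 on the log2 scale. TSC2, which restrains RHEB, fell in HOXB13 cells by 0.46 ± 0.12 and stood at -0.28 ± 0.12 in control cells, where it was called with the block only (block-adjusted p = 0.0195).

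Of 14 small nucleolar RNA host genes, 2 rose and 0 fell in control cells and 3 rose and 0 fell in HOXB13 cells: SNHG3 and SNHG15 in both and SNHG16 in HOXB13 cells, with medians of 0.12 and 0.22. In control cells SNHG16 stood at 0.48 ± 0.16 (adjusted p = 0.0509 in edgeR's quasi-likelihood test, or 0.0021 with the block). With the block 3 rose in control cells and 4 in HOXB13 cells. Of 8 p53 genes linked to free ribosomal proteins, 0 were called by edgeR in either genotype, with medians of 0.03. At an unadjusted p under 0.05, 1 was higher in control cells and 1 lower in each genotype, and DESeq2 called 1, as higher in control cells. With the block 2 rose and 1 fell in control cells, and 1 rose and 1 fell in HOXB13 cells. Of 76 mitochondrial ribosomal protein genes, 10 rose and 0 fell in control cells and 7 rose and 0 fell in HOXB13 cells, with medians of 0.20 and 0.26, and with the block 34 and 39 rose. Of 76 tested ribosomal protein pseudogenes, 2 rose and 1 fell in control cells and 1 rose and 1 fell in HOXB13 cells, with medians of 0.23 and 0.19, and with the block 6 and 4 rose and 1 fell in each.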

How the data were processed

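The deposited table holds the authors' raw read counts per gene symbol for 12 libraries. Per the submitters' processing notes, the tools included STAR, HTSeq, Picard and FastQC, with hg19 and GRCh37 as builds. Versions, annotation release and strandedness are not given in the sources used. Genes were kept by edgeR's filterByExpr (minimum count 10, minimum total count 15), which left at least 99.9% of counts in every library. CPM use TMM factors (0.974 to 1.04). The robust quasi-likelihood F test of edgeR 4.0.16 (R 4.3.3) was fitted to all 12 libraries, and p-values were adjusted by Benjamini-Hochberg over the 14799 tested genes, with 0.05 as the threshold. Scripts were tested on simulated data. Within groups, libraries differed beyond counting noise, at a chi-square of 7.03 to 46.3 per degree of freedom, so none was counted as a duplicate.

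Whether equal library numbers pair was checked from the correlation across genes of their deviations from the group means. The correlations were 0.132 to 0.457, 0.184 to 0.354, 0.125 to 0.409 and 0.123 to 0.311 in the 4 comparisons between groups, all above 0.1, so values with the number as a block are given. Number 2 had the highest value each time. Libraries of unequal number reached at most 0.105, 0.0737, 0.169 and 0.120 in the same order. In vehicle, HOXB13 number 3 with control number 1 (0.169) lay above number 1 with number 1 (0.125). A value above 0.1 thus does not show that numbers 1 and 3 pair. Deviations cancel within a group, so a shift of number 2 alone would also make numbers 1 and 3 correlate. For the interaction the lowest value was 0.0926, which is under 0.1, so its main result is without the block. Its values with the block are given beside that result although the rule was not met. Protein lengths came from GENCODE (GRCh38) by symbol, for 79 members and 85.8% of tested genes.

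The members, the gene lists and the naming rule were chosen with earlier results of these data known. The rule named up to 8 called members per direction, 23 set genes, the 5 highest and 5 lowest by mean CPM, and the 5 extremes per direction of the library 2 difference. RPS26, RPS3A, RPS7, RPL28, RPS28 in the genotype contrast and the promoter windows of RPL34 and RPL35 were chosen after their values were seen. Alternatives were the replicate block, DESeq2 1.42.0, other scalings, no filter, only the groups compared, a length trend, and leaving out libraries. Leaving out all libraries numbered 1 or 3 was chosen after seeing the data. Members below the filter that the text does not name are not reported here.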

Additional observations from a re-analysis of the deposited data

How the results depend on the processing

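The count of members called higher with estradiol changed with the processing, while the members' median log2 fold change stayed above 0 under every alternative run, at 0.19 to 0.47 in control cells and 0.15 to 0.41 in HOXB13 cells. In control cells the 3 calls (8.65% of all tested genes were called higher) became 64 with the replicate block (17.5%), 8 with DESeq2 (10.3%), 6 with total counts in place of TMM (9.01%), 33 with no filter on low counts (5.57%) and 1 with only the groups compared (7.16%). They became 49 without libraries numbered 2 (12.9%), 0 without those numbered 1 (2.42%) or 3 (3.11%), and 8 with the length trend removed (9.99%), or 48 with the block as well (17.2%). In HOXB13 cells the 3 calls (7.22%) became 52 with the replicate block (15.5%), 6 with DESeq2 (8.91%), 7 with total counts (8.63%), 18 with no filter (4.82%), 52 without libraries numbered 2 (11.7%), 0 without those numbered 1 (1.42%) or 3 (2.3%), and 7 with the length trend removed (8.62%), or 37 with the block (15.3%). With single libraries left out the counts ran from 1 to 41 in control cells and from 1 to 15 in HOXB13 cells. In control cells the count was 1 without vehicle library 1 or 3, estradiol library 2 or 3, HOXB13 vehicle library 1, or HOXB13 estradiol library 1 or 3, it was 5 without estradiol library 1, and it was 7 without HOXB13 vehicle library 2. In HOXB13 cells it was 1 without vehicle library 1 or 3 or any estradiol library, and 6 without control vehicle library 2. The cause was not tested.

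Signs turned for members near 0, none of them called in the main analysis. In control cells, removing the length trend gave -0.025 for RPL39, -0.014 for RPLP1, -0.020 for RPS21 and -0.13 for RPS29, and with the block -0.020, -0.011, -0.017 and -0.11. RPS29 was at -0.027 without libraries numbered 1. With 1 library left out the values ran from -0.015 to 0.39 for RPL39, -0.042 to 0.34 for RPLP1, -0.029 to 0.34 for RPS21 and -0.13 to 0.20 for RPS29. In HOXB13 cells, removing the length trend gave -0.081 for RPLP1, -0.022 for RPS19, -0.060 for RPS28 and -0.037 for RPS29, and with the block -0.077, -0.021, -0.058 and -0.037. Without libraries numbered 3, RPLP1 was at -0.095, RPS19 at -0.0011 and RPS28 at -0.029, and without those numbered 2, RPLP2 was at 0.00613. With 1 library left out the values ran from -0.12 to 0.18 for RPLP1, -0.20 to 0.057 for RPLP2, -0.046 to 0.19 for RPS19 and -0.10 to 0.27 for RPS28.

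With the block, 0 members were called in the interaction (0% of all tested genes) or in the contrasts of HOXB13 with control cells. In these contrasts it called 0.189% of all tested genes higher and 0.216% lower in vehicle, and 0.142% and 0.25% in estradiol. There and in the interaction the sign of the members' median was not stable: with 1 library left out it ran from -0.18 to 0.13 in vehicle, from -0.17 to 0.05 in estradiol and from -0.22 to 0.10 for the interaction. Members' 95% intervals in contrasts of 2 groups reached about 0.36 to either side, and about 0.18 with the block. Depth bears most on RPS10L, at 0.925 CPM.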
